A study of Mus musculus with 16 samples.

Results

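Transcripts of 36 lysosomal genes were followed in cortex of mice with an amyloid transgene, with an extra copy of a chromosome 16 segment, or with both. The genes were taken by symbol from the count table of 55385 genes and cover 6 membrane proteins, 21 enzymes and their cofactors, 2 biogenesis regulators and 7 subunits or accessory proteins of the proton pump. Cathepsins were not among them. Each of the 36 had reads in each library and passed the filter on low counts, so that all 36 were tested among 17019 genes.

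Lysosomes break down proteins, lipids, glycans and nucleic acids delivered by endocytosis and autophagy. A vacuolar proton pump (V-ATPase), made of a membrane sector that carries protons and a cytosolic sector that hydrolyses ATP, acidifies the interior so that the hydrolases can work. Tfeb and Tfe3 are transcription factors that move to the nucleus when lysosomes are stressed and bind short promoter elements with an E-box core in lysosomal genes. In brain, inherited loss of many of these enzymes causes storage disease with nerve cell loss, and lysosome-rich microglia and swollen, lysosome-filled neurites gather at amyloid plaques.

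Polyadenylated RNA was sequenced from brain cortex of 16 animals aged 5 months, in 4 genotypes of 4 animals with 1 library each. Wild-type animals were C57BL/6J per the labels, which give no strain for the other genotypes. Dp16 mice carry a duplicated stretch of chromosome 16 syntenic to human chromosome 21, 5xFAD mice carry mutant human transgenes of familial Alzheimer disease expressed in neurons from the Thy1 promoter, and 5xFAD-Dp16 mice carry both. Wild-type, Dp16 and 5xFAD groups held 2 males and 2 females each, and the 5xFAD-Dp16 animals were all males. 5xFAD replicates 1 and 2 were females, and replicates 3 and 4 were males. None of the 36 genes lies in the segment from Lipi to Zbtb21 (chromosome 16, 75540514 to 97962622, GRCm38) that was taken as the duplicated stretch, and 1 of them, the pump subunit Atp6v1a (44085402 to 44139705), lies elsewhere on that chromosome.

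Libraries held 12483286 to 20385010 counted reads. Values per library are CPM, the reads of a gene relative to the library's total after scaling by TMM factors, and levels compared between genes are RPKM, which also divide by gene length. As checks of the labels, the log2 difference of Thy1 between carriers and non-carriers of the transgenes was 0.94 (adjusted p = 7.39e-06, edgeR), and that of App, which lies in the duplicated stretch, between carriers and non-carriers of the duplication was 0.78 (adjusted p = 0.0249). The App check was less clean. It was 0.48 in Dp16 against wild-type (adjusted p = 0.999954, edgeR) and 1.07 in 5xFAD-Dp16 against 5xFAD (adjusted p = 0.0795). App stood at 1404 CPM in Dp16 replicate 4 and at 1507 in wild-type replicate 4, so carriers and non-carriers overlapped. The libraries differed in how a gene's level, relative to its mean over the libraries, followed gene length. Spearman's rho across genes was lowest in 5xFAD replicate 3, at -0.46, and highest in 5xFAD-Dp16 replicate 1, at 0.45, and it was above 0 in the 4 5xFAD-Dp16 libraries. Against transcript GC content, the lowest rho was -0.30 in 5xFAD replicate 4 and the highest 0.29 in Dp16 replicate 3, and it was below 0 in the 4 5xFAD libraries. Summed markers of microglia, the main phagocytes of the brain, ran from 757 to 1232 CPM in 5xFAD, against 622 to 686 in wild-type, 611 to 767 in Dp16 and 645 to 767 in 5xFAD-Dp16. In bulk tissue, fewer cells of a type and less RNA per cell cannot be told apart.

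The E-box core CACGTG, the element that Tfeb and Tfe3 bind, was looked for in the promoters of these genes. The 300 bases around each listed start of transcription (250 before and 50 after, RefSeq, GRCm38.p6) were found for 33 of the 36 genes, as 40 windows. Asah1, Atp6v1b2 and Atp6v1h had no entry. Some genes had several starts, and a gene was counted when any of its windows held the motif. CACGTG, a palindrome and hence the same on both strands, occurred in 10 of the 33 genes (30.3%), against 8.09% of 27025 genes in the table. The longer GTCACGTG, searched on both strands and containing the core, occurred in 8 (24.2%) against 2.55%, and the palindrome TCACGTGA, which also contains the core and can overlap GTCACGTG, in 4 (12.1%) against 1.12%. The search was chosen after the expression values were seen. The 27025 genes were not limited to the 17019 tested in cortex, whereas all 33 were tested, so the 2 shares do not come from like sets. A match describes the letters and is not a bound site. Lamp1, which encodes an abundant glycoprotein of the lysosomal membrane, had 4 cores, and Mcoln1, which encodes the lysosomal cation channel TRPML1, had 2. All lay in the last 100 bases before the start, which are shown for these genes because they held more than 1 core. Capitals mark the core, with the added bases where it is part of a longer motif.
Lamp1, chr8:13159061-13159160, + strand: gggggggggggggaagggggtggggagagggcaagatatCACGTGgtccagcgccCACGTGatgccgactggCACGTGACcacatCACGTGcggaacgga
Mcoln1, chr8:3500419-3500518, + strand: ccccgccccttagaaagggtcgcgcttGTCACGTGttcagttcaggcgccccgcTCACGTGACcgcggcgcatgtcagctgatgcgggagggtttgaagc
The next genes are shown by the 30 bases around the core that is part of GTCACGTG on either strand, with the core alone in capitals. Gla had a further core outside the stretch shown. For Lgmn the core lay in the window of a downstream start, and the window of its upstream start (chr12:102439679-102439978) held 0 cores. These genes encode enzymes that cut glycans (Glb1, beta-galactosidase; Gla, alpha-galactosidase A), heparan sulfate (Naglu and Sgsh) or proteins (Lgmn, an asparaginyl endopeptidase), and a membrane-sector subunit of the pump (Atp6v0d1).
Glb1, chr9:114401018-114401047, + strand: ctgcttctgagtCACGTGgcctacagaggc
Gla, chrX:134601182-134601211, - strand: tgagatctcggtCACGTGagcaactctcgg
Naglu, chr11:101070009-101070038, + strand: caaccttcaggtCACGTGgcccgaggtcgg
Sgsh, chr11:119355522-119355551, - strand: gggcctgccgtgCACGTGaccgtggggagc
Lgmn, chr12:102439124-102439153, - strand: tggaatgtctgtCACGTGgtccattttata
Atp6v0d1, chr8:105566050-105566079, - strand: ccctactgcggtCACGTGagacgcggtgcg
Gaa and Atp6v1a were the other genes with a core. No test was run between genes with and without a core. In the 5xFAD effect averaged over both backgrounds the 10 genes with a core had a median log2 difference of -0.12, with 1 of 10 positive, and the 23 without had a median of 0.010, with 12 positive. In 5xFAD-Dp16 against 5xFAD the medians were 0.19 and 0.10, with 8 of 10 and 15 of 23 positive.

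Per length, the saposin precursor and most pump genes stood highest. Psap, which encodes the precursor of the saposins that help hydrolases reach lipids, stood highest at 353 ± 64.7 RPKM (SD over 16 libraries). The proton-conducting ring subunit Atp6v0c followed at 274 ± 35.5 RPKM, then Atp6v1b2 of the catalytic head at 239 ± 16.7 and Lamp1 at 195 ± 11.3. Lamp1 and Atp6v0d1 (191 ± 16.1 RPKM) did not differ beyond their spread. The other pump genes Atp6ap1, Atp6v1a and Atp6v1h stood between 113 and 150.2 RPKM, and Atp6v0a1, the membrane-sector subunit enriched in neurons, was far lower at 35.3 ± 14.3 RPKM.

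Among membrane proteins Cd63, a tetraspanin of late endosomes and lysosomes, stood at 87.7 ± 17.3 RPKM. Scarb2, the receptor that carries glucocerebrosidase to lysosomes, Tmem106b, a lysosomal membrane protein linked to frontotemporal dementia, and Lamp2, the second major lysosomal glycoprotein, lay at 29.6 ± 3.61, 26.6 ± 2.40 and 25.9 ± 3.43 RPKM and did not differ beyond their spread. Mcoln1 was lowest of the 6 at 15.6 ± 2.72 RPKM. Among enzymes Lgmn stood at 83.9 ± 6.74 RPKM, Ids, which removes sulfate from dermatan and heparan sulfate, at 54.5 ± 13.7, and Ppt1, which removes palmitate from proteins, at 48.9 ± 4.43. The regulators Tfe3 and Tfeb were low, at 3.85 ± 1.17 and 1.57 ± 0.378 RPKM. The lowest levels were those of Idua, alpha-L-iduronidase, at 1.52 ± 0.425 RPKM and Sgsh, heparan sulfamidase, at 0.735 ± 0.418.

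**Figure D1:**
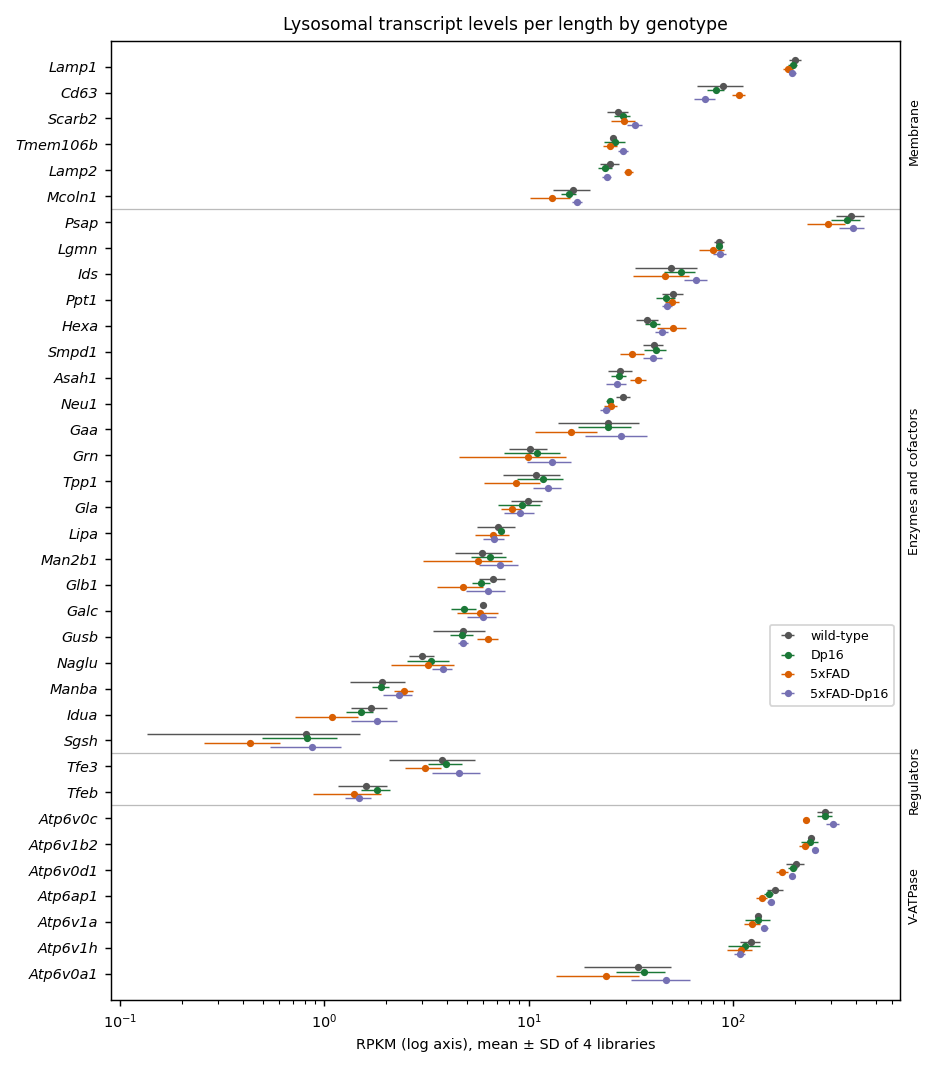
RPKM on a log axis for each of the 36 genes by genotype, as mean ± SD of 4 libraries, grouped by role. Psap, Lamp1 and the pump subunits other than Atp6v0a1 lie above 100 RPKM, and Sgsh lies lowest.

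The genes differed widely in how steady they were between animals of 1 genotype. The pooled SD of log2 CPM within genotypes had a median of 0.22 over the 36 genes and was lowest for Lamp1, at 0.069, followed by Atp6ap1 at 0.083 and Atp6v0c at 0.098. It was highest for Sgsh at 0.72, Atp6v0a1 at 0.53, Grn at 0.49 and Gaa at 0.48. Counting noise, which is larger for genes with few reads, was not separated from this spread. Sgsh stood at 0.924 to 7.78 CPM and Lamp1 at 396 to 501 CPM. Grn encodes progranulin, a secreted and lysosomal glycoprotein, and Gaa encodes the acid alpha-glucosidase that degrades glycogen.

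Several of the unsteady genes had their lowest or highest values in the same libraries. 5xFAD replicate 3 was the lowest of the 16 libraries for Atp6v0a1 (48.6 CPM), Gaa (41.0), Man2b1 (9.63), an alpha-mannosidase, and Sgsh (0.924). The libraries at the other end were wild-type replicate 4, with Atp6v0a1 at 223, Gaa at 154 and Sgsh at 7.78 CPM, and 5xFAD-Dp16 replicate 1, with 263, 160.1 and 5.45 CPM. These same libraries lay at the ends of the length relation, with rho -0.46 in 5xFAD replicate 3 and 0.43 and 0.45 in the other 2. Atp6v0a1, Gaa, Man2b1 and Sgsh were 3822 to 4357 bases long. The longest lysosomal genes did not share a direction in 5xFAD replicate 3. Lamp2 (5039 bases) was highest of the 16 libraries there, at 186 CPM, and Ids (4972 bases) was lowest, at 162. Tmem106b (6002 bases) stood at 161 CPM there, against a wild-type mean of 156. The part of gene length in these extremes was not tested. All of these genes were chosen after their values were seen.

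**Figure D2:**
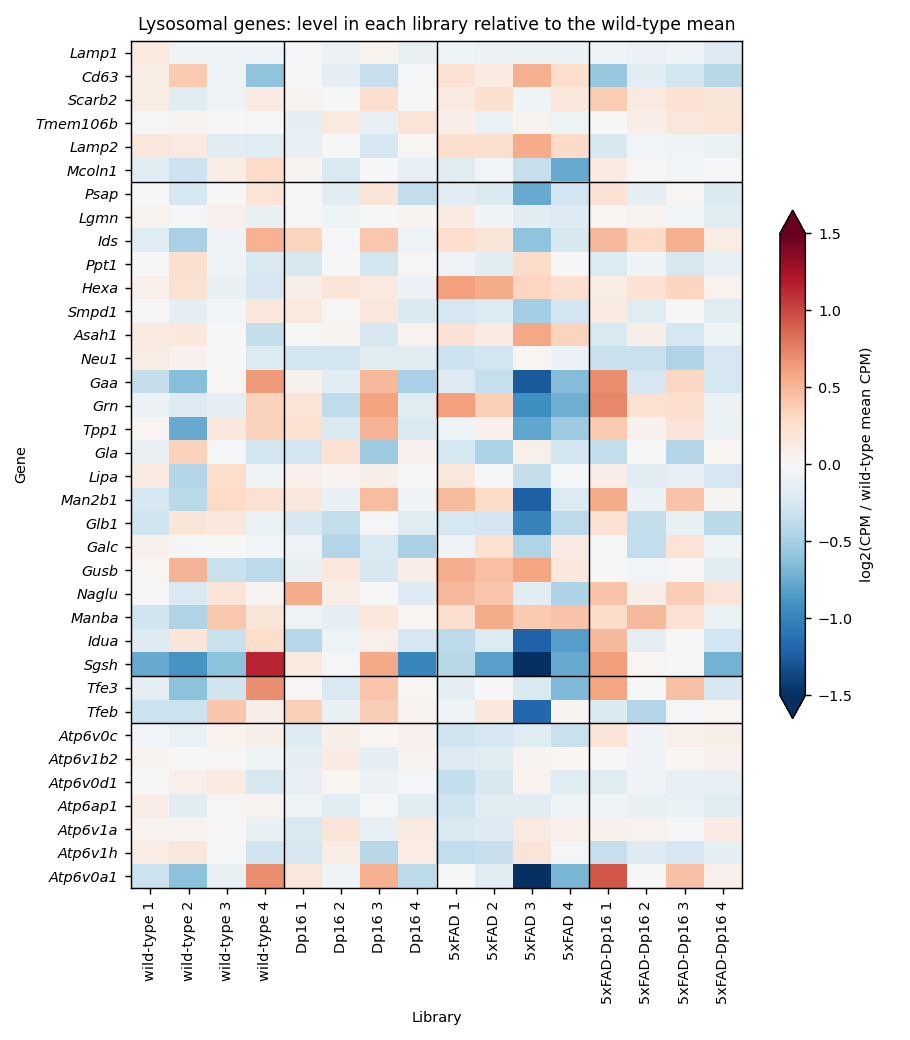
Log2 ratio of each gene's CPM to the wild-type mean, in each of the 16 libraries (columns, by genotype and replicate) and 36 genes (rows, by role). Sgsh, Atp6v0a1, Gaa and Man2b1 are dark blue in 5xFAD replicate 3, and the rows of Lamp1 and most pump subunits are pale throughout.

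The 5xFAD effect asks what the transgenes change in cortex, and none of the 36 genes passed the threshold. Calls were made with edgeR's quasi-likelihood test and Benjamini-Hochberg adjustment over all genes, at an adjusted p under 0.05. Averaged over both backgrounds 0 of 36 lysosomal genes were called, where 0.188% of all genes were called (0.153% higher and 0.0353% lower), so that the count is near the background and is no result about these genes. DESeq2 called 0 of 36 as well. At an unadjusted p under 0.05, 1 of the 36, Hexa, was higher and 2, Neu1 and Smpd1, were lower, against 4.2% of genes higher and 3.34% lower. The median log2 difference was -0.042 over the 36 genes and 0.00084 over all genes, and 14 of 36 differences were positive. Against wild-type alone the median was -0.090 (0.019 over all genes), 9 of 36 were positive and 0 were called (0.176% of all genes), as with DESeq2. At an unadjusted p under 0.05, 4 stood higher (Hexa, Lamp2, Gusb and Asah1) and 5 lower (Atp6v0c, Smpd1, Idua, Glb1 and Psap), against 5.22 and 5.53% of genes. The 5xFAD and wild-type libraries did not overlap for 2 genes on the higher side, Lamp2 and Hexa, and for 3 on the lower, Lamp1, Smpd1 and Atp6v0c, where 2.8 and 2.68% of all genes did not. In 5xFAD-Dp16 against Dp16 the median was 0.058 (0.013 over all genes), 20 were positive, 0 were called (0.0176% of all genes) and 0 had an unadjusted p under 0.05 (2.67% of genes higher and 2.63% lower). That median turned to -0.012 without 5xFAD-Dp16 replicate 1, to -0.0012 with only the compared groups and to -0.000583 among males. This comparison also rests on the sex term, since the 5xFAD-Dp16 animals were all males and the Dp16 animals were of both sexes. The fits of the compared groups and of the males both rest on the male Dp16 libraries, so they are not separate evidence. DESeq2 called 0 of 36 there, and the groups of each of the 36 genes overlapped, where 2.82% of all genes did not overlap on the higher side and 2.61% on the lower.

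Hexa, the alpha subunit of beta-hexosaminidase, which degrades gangliosides, had the smallest p of the 36 in the averaged effect. It stood at 80.7, 89.9, 70.9 and 64.0 CPM in wild-type and at 117, 112, 95.7 and 90.8 in 5xFAD. Dp16 libraries held 81.6, 86.8, 84.4 and 72.0 CPM and 5xFAD-Dp16 libraries 82.5, 88.8, 95.4 and 79.5. All 4 5xFAD libraries were above all wild-type and Dp16 libraries, and the 5xFAD-Dp16 libraries overlapped with both. The log2 difference was 0.28 (SE 0.093, adjusted p = 0.407) averaged over backgrounds, 0.44 (SE 0.13, adjusted p = 0.237) against wild-type, and 0.12 (SE 0.14, adjusted p = 0.815) in 5xFAD-Dp16 against Dp16. Hexa is on chromosome 9 (59539540 to 59565109, GRCm38).

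Neu1, the lysosomal sialidase, was the enzyme with the next smallest p, in the other direction. Its libraries held 77.9, 75.7, 72.5 and 62.5 CPM in wild-type animals, 59.3, 59.3, 64.0 and 64.0 in Dp16 animals, 57.7, 59.0, 73.4 and 68.1 in 5xFAD and 57.1, 57.2, 52.9 and 60.4 in 5xFAD-Dp16. The 5xFAD libraries overlapped with those of wild-type and the 5xFAD-Dp16 libraries with those of Dp16, and within 5xFAD the females were below the males. The averaged log2 difference was -0.17 (SE 0.078, adjusted p = 0.626). Smpd1, acid sphingomyelinase, was the remaining enzyme with an unadjusted p under 0.05, at -0.20 (SE 0.089, adjusted p = 0.634), and its 5xFAD libraries, from 69.4 to 85.2 CPM, lay below all wild-type libraries, from 89.2 to 109.6 CPM. It is named after its values were seen.

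Of the membrane proteins, Scarb2 and Lamp2 had the smallest p in the averaged effect. Scarb2 held 139, 113, 122 and 141 CPM in wild-type animals, 132, 129, 153 and 128 in Dp16 animals, 142, 153, 123 and 143 in 5xFAD and 168, 141, 149 and 146 in 5xFAD-Dp16, so that the 5xFAD and wild-type libraries overlapped, and had a log2 difference of 0.14 (SE 0.083, adjusted p = 0.776). Lamp2 held 143, 139, 114 and 112 CPM in wild-type and 151, 149.5, 186 and 154 in 5xFAD, with no overlap, and 117, 127, 107 and 129 in Dp16 and 107, 124, 121 and 118 in 5xFAD-Dp16, which overlapped. Its log2 difference was 0.34 (SE 0.12, adjusted p = 0.332) against wild-type and 0.14 (SE 0.088, adjusted p = 0.792) in the averaged effect. Lamp1 was the steadiest of the 6 within 5xFAD, at 431, 426, 426 and 424, all below the wild-type libraries at 501, 435, 436 and 434, with a difference of -0.080 (SE 0.093, adjusted p = 0.777).

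Neither regulator passed the threshold. Tfeb held 5.12, 5.12, 8.54 and 6.84 CPM in wild-type and 6.13, 7.14, 2.84 and 6.58 in 5xFAD, where replicate 3 was lowest, and 8.23, 5.93, 8.30 and 6.63 in Dp16 and 5.50, 4.71, 6.32 and 6.55 in 5xFAD-Dp16. Its averaged log2 difference was -0.23 (SE 0.19, adjusted p = 0.900). Tfe3 held 12.4, 8.84, 11.1 and 22.03 CPM in wild-type animals, 13.8, 11.6, 18.1 and 13.9 in Dp16 animals, 12.3, 13.6, 11.6 and 8.60 in 5xFAD and 20.5, 13.6, 18.5 and 11.5 in 5xFAD-Dp16, a difference of 0.010 (SE 0.19, adjusted p = 0.999). The groups of both genes overlapped, and Tfe3's sign changed when single libraries were left out. These are transcript levels and say nothing of where the proteins were in the cell.

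The pump genes had negative differences in the averaged effect and against wild-type, without a call. Each of the 7 had a negative log2 difference in the averaged effect (median -0.11, against 0.00084 over all genes) and against wild-type (median -0.17), and 0 of 7 passed the threshold with edgeR or DESeq2; at an unadjusted p under 0.05 they numbered 0 in the first and 1, Atp6v0c, in the second. Atp6v0d1 had the smallest p, with 330.4, 349, 364 and 281 CPM in wild-type animals, 303, 337, 312 and 328 in Dp16 animals, 256, 281, 342 and 292 in 5xFAD and 292, 318, 304 and 305 in 5xFAD-Dp16 and a difference of -0.16 (SE 0.078, adjusted p = 0.688). Atp6ap1, the accessory protein Ac45, held 387, 323, 366 and 372 CPM in wild-type animals, 344, 324, 357 and 326 in Dp16 animals, 295, 323, 323 and 342 in 5xFAD and 347, 336, 337 and 318 in 5xFAD-Dp16, a difference of -0.11 (SE 0.070, adjusted p = 0.790). In both genes the 5xFAD libraries overlapped with those of wild-type. The 7 differences ran from -0.17 for Atp6v1h, a regulatory subunit of the cytosolic sector, to -0.033 for Atp6v0a1. Of 12 other pump subunits tested, 10 were negative in the averaged effect (median -0.060), but 8 of 12 were positive against wild-type (median 0.058), so the direction was not shared by the whole pump there.

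Summed over the 36 genes, the 5xFAD libraries held 5486 to 5602 CPM, below wild-type (5737 to 6189.8), Dp16 (5746 to 6130.0) and 5xFAD-Dp16 (5765 to 6423). This sum is carried by the most abundant genes, Psap among them, which held 923, 890.1, 612 and 849 CPM in 5xFAD against 1040.1, 863, 1044 and 1198 in wild-type. Summed membrane proteins ran the other way, from 1046 to 1112 CPM in 5xFAD against 966 to 1107 in wild-type, with overlap. Summed enzymes, at 1707 to 2251 CPM against 2028 to 2549, and summed pump genes, at 2261 to 2652 against 2646 to 2750, also overlapped. With each of the 36 genes weighed alike, the mean log2 ratio to wild-type overlapped too. It ran from -0.28 to 0.022 in 5xFAD, -0.096 to 0.097 in wild-type and -0.072 to 0.16 in 5xFAD-Dp16. For the pump genes alone it did not overlap with wild-type, at -0.24 to -0.15 against -0.071 to 0.033.

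**Figure D3:**
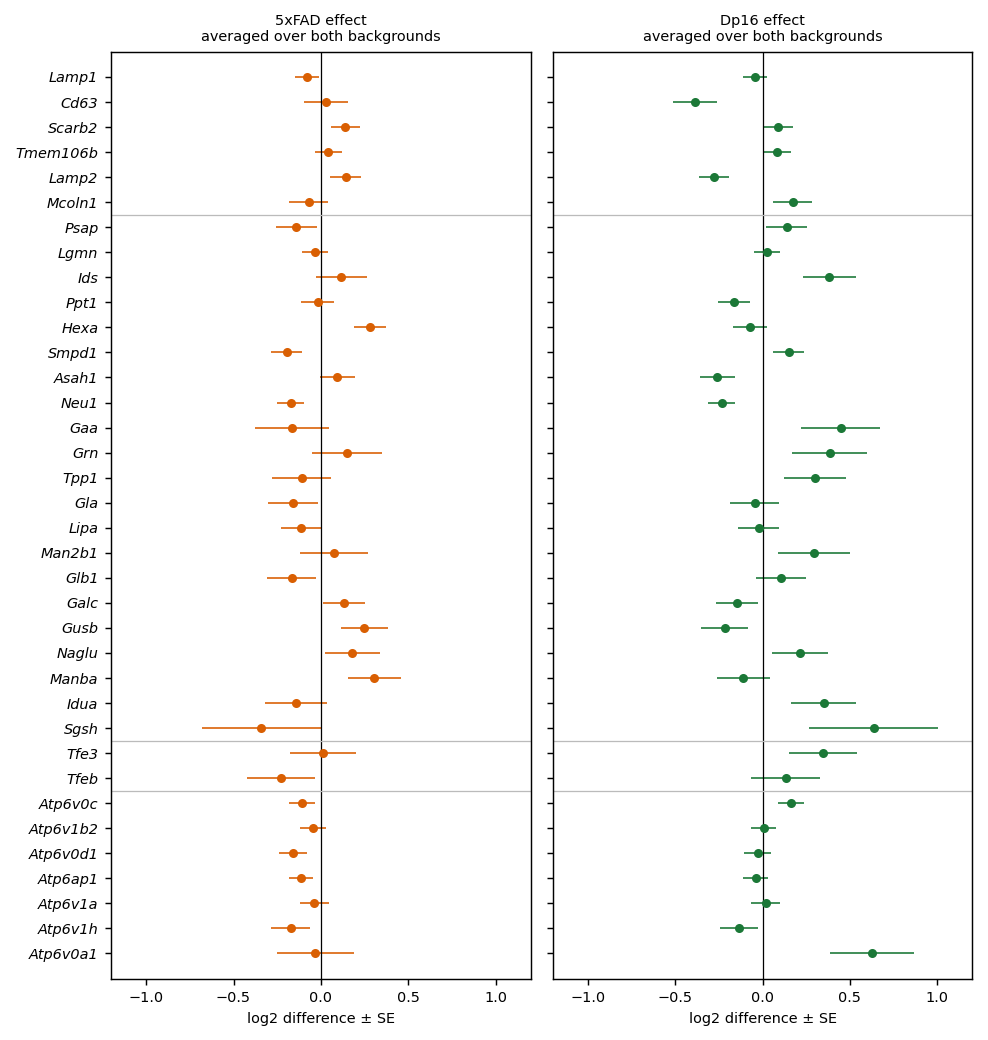
Log2 difference ± SE of each of the 36 genes for the 5xFAD effect (left) and the Dp16 effect (right), each averaged over both backgrounds, by role. No gene passed the threshold in either panel; Hexa is at 0.28 on the left, and Cd63 at -0.39 and Atp6v0a1 at 0.62 on the right.

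The Dp16 effect asks what the duplicated segment changes, and here too 0 of 36 genes were called, averaged over both backgrounds (0.094% of all genes were called), as with DESeq2. At an unadjusted p under 0.05, 3 were higher and 4 lower, against 7.27 and 7.76% of all genes, so that the members stood near the background on both sides. Among males alone 7 were called (19.4%, against 14.2% of all genes), and with no filter on low counts 4 were called (11.1%, against 3.76%). The median log2 difference was 0.054 (0.015 over all genes). In Dp16 against wild-type, without the transgenes, 0 were called by either tool (0.0176% of all genes by edgeR), 0 were higher and 1 was lower at an unadjusted p under 0.05 (2.48 and 1.4% of all genes), and the median was -0.0047 (0.0017 over all genes). The libraries of these groups did not overlap for 0 genes on the higher side and for 1 on the lower, Galc, which encodes galactosylceramidase, where 1.44 and 0.852% of all genes did not.

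Cd63 and Lamp2, of the membrane, and Neu1 and Asah1, acid ceramidase, were the lower genes at an unadjusted p under 0.05 in the averaged effect. Cd63 held 140.5, 171, 125 and 85.7 CPM in wild-type animals, 128, 119, 103 and 128 in Dp16 animals, 151, 142, 188 and 157 in 5xFAD and 88.0, 116, 108 and 97.5 in 5xFAD-Dp16. All 4 5xFAD-Dp16 libraries were below all 5xFAD libraries, and Dp16 lay within the range of wild-type. The averaged difference was -0.39 (SE 0.13, adjusted p = 0.322). The averaged difference of Lamp2 was -0.28 (SE 0.087, adjusted p = 0.322) and that of Neu1 -0.23 (SE 0.077, adjusted p = 0.322). Wild-type libraries held 86.0, 87.4, 78.9 and 61.2 CPM of Asah1 and Dp16 libraries 77.8, 80.8, 66.5 and 81.0, which overlapped. The 5xFAD libraries held 91.2, 85.3, 117 and 99.0 CPM and the 5xFAD-Dp16 libraries 66.6, 83.5, 65.4 and 74.6, which did not. Its averaged difference was -0.26 (SE 0.099, adjusted p = 0.322).

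On the higher side were Atp6v0a1, Atp6v0c and Ids. Atp6v0a1 held 110.2, 89.6, 127 and 223 CPM in wild-type animals and 155, 133, 199 and 105 in Dp16. In 5xFAD it held 136, 123, 48.6 and 85.8 and in 5xFAD-Dp16 263, 138, 187 and 145 CPM. All 5xFAD-Dp16 libraries were above all 5xFAD libraries, though narrowly, while Dp16 lay within the wild-type range, and the averaged difference was 0.62 (SE 0.24, adjusted p = 0.322). Atp6v0c held 343, 330.4, 366 and 376 CPM in wild-type animals, 310.2, 376, 361 and 371 in Dp16 animals, 288, 295, 313 and 279.9 in 5xFAD and 406, 342, 373 and 375 in 5xFAD-Dp16. Its 5xFAD libraries were below all 8 wild-type and 5xFAD-Dp16 libraries, and its averaged difference was 0.16 (SE 0.075, adjusted p = 0.328). The difference of Ids was 0.38 (SE 0.15, adjusted p = 0.322).

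**Figure D4:**
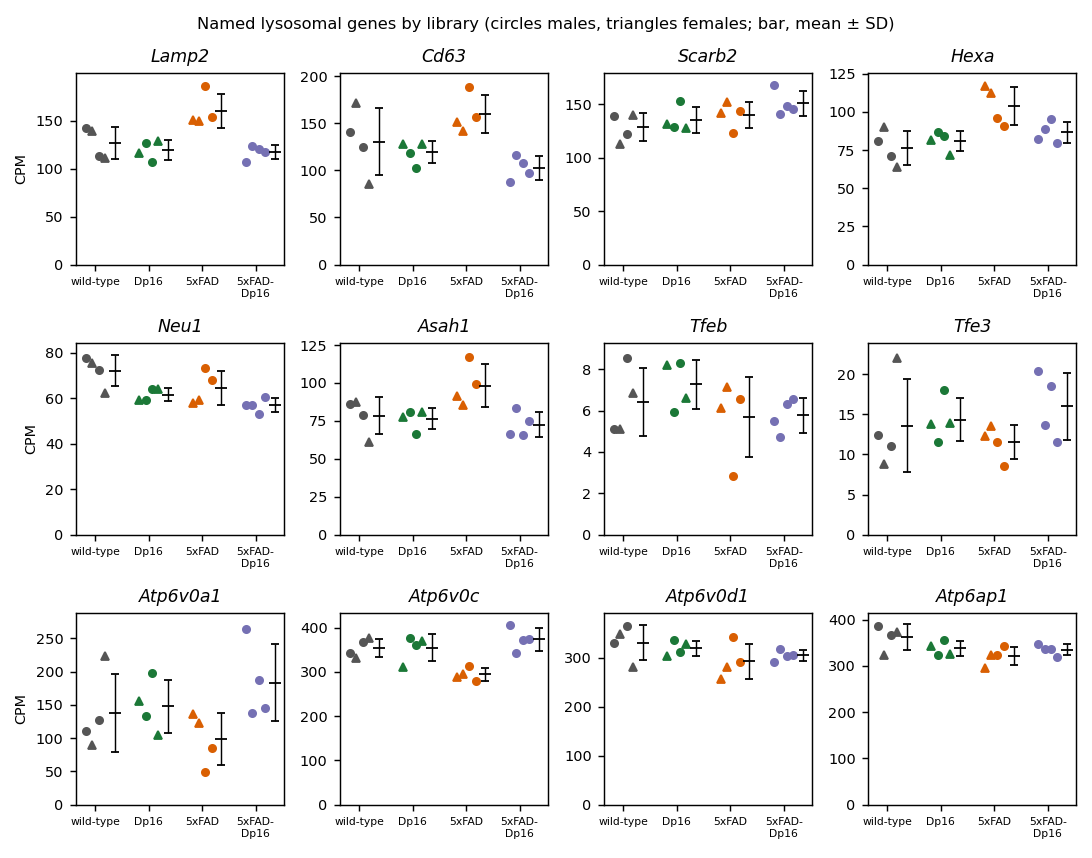
CPM of the 12 lysosomal genes with the smallest p in their role in either averaged effect, in each library (circles males, triangles females), with mean ± SD of 4 beside each genotype and axes from 0. The 5xFAD libraries of Lamp2 and Hexa lie above those of wild-type, and 5xFAD-Dp16 lies apart from 5xFAD for Lamp2, Cd63, Asah1, Atp6v0a1 and Atp6v0c.

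5xFAD-Dp16 against 5xFAD gives the Dp16 effect on the amyloid background, and which lysosomal genes were called there varied with the model. With all 16 libraries and a sex term, 0 of 36 lysosomal genes and 0% of all genes were called. At an unadjusted p under 0.05, 7 were higher and 5 lower, against 11.8 and 12% of all genes. The median log2 difference was 0.073 (-0.0018 over all genes) and 24 of 36 were positive. Cd63 differed by -0.65 (SE 0.18, adjusted p = 0.155), Asah1 by -0.49 (SE 0.15, adjusted p = 0.155) and Lamp2 by -0.47 (SE 0.13, adjusted p = 0.155), with groups that did not overlap. Atp6v0a1 differed by 1.10 (SE 0.35, adjusted p = 0.155) and Atp6v0c by 0.32 (SE 0.11, adjusted p = 0.155), with groups that did not overlap. Counting Smpd1 and Gusb, groups did not overlap for 3 genes on the higher side and 4 on the lower, where 5.59 and 5.87% of all genes did not. The same comparison without the transgenes, Dp16 against wild-type, gave -0.13 for Cd63, -0.029 for Asah1, -0.083 for Lamp2, 0.15 for Atp6v0a1 and 0.0015 for Atp6v0c.

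Of the other models, DESeq2 called 5 members (13.9%, against 4.35% of all genes), namely Lamp2, Cd63 and Asah1 lower and Atp6v0a1 and Atp6v0c higher, with adjusted p from 0.0327 to 0.0467. Fits of the males alone and of these groups alone each called 12 members (33.3%), where 22.5 and 31.3% of all genes were called. In either fit the 12 were Mcoln1, Gaa, Idua, Ids, Man2b1, Psap, Grn, Tpp1 and Atp6v0a1, called higher, and Lamp2, Cd63 and Asah1, called lower. These fits are not separate evidence. With these groups alone each female was 5xFAD, so the sex term took up the females. The genotype difference then rested on the same 2 male 5xFAD libraries as in the fit of males. With no filter on low counts 5 were called (13.9%, against 7.6% of all genes). With the length and GC trends of each library removed, which was chosen after the values were seen, 0 members were called; Cd63 stood at -0.68, Lamp2 at -0.34, Asah1 at -0.29, Atp6v0a1 at 1.06 and Atp6v0c at 0.56. The trends removed 1 at a time also left 0 members called. With the length trend alone removed Cd63 stood at -0.39, Lamp2 at -0.68, Asah1 at -0.48, Atp6v0a1 at 0.98 and Atp6v0c at 0.64, and with the GC trend alone removed at -0.90, -0.23, -0.36, 1.15 and 0.26 in the same order, so that the sizes for Cd63, Lamp2 and Atp6v0c depended on the trend removed. Leaving out 5xFAD replicate 3, the library at the low end of the length relation, gave -0.52 for Cd63, -0.36 for Lamp2, -0.38 for Asah1, 0.79 for Atp6v0a1 and 0.36 for Atp6v0c, each with an adjusted p of 0.700 (edgeR). Since the 5xFAD-Dp16 animals were all males, their comparison with 5xFAD rests on the sex term or on the 2 male 5xFAD libraries. Of the 16 microglia markers in the same comparison 0 were called, 7 were lower and 0 higher at an unadjusted p under 0.05, and 7 were positive, with a median log2 difference of -0.29. Of the 12 plaque-associated markers 6 were lower and 1 higher, with a median of -0.25 and 0 called, against 12% of all genes lower and 11.8% higher. Their part in the lower values of Cd63, Lamp2 and Asah1 was not tested.

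**Figure D5:**
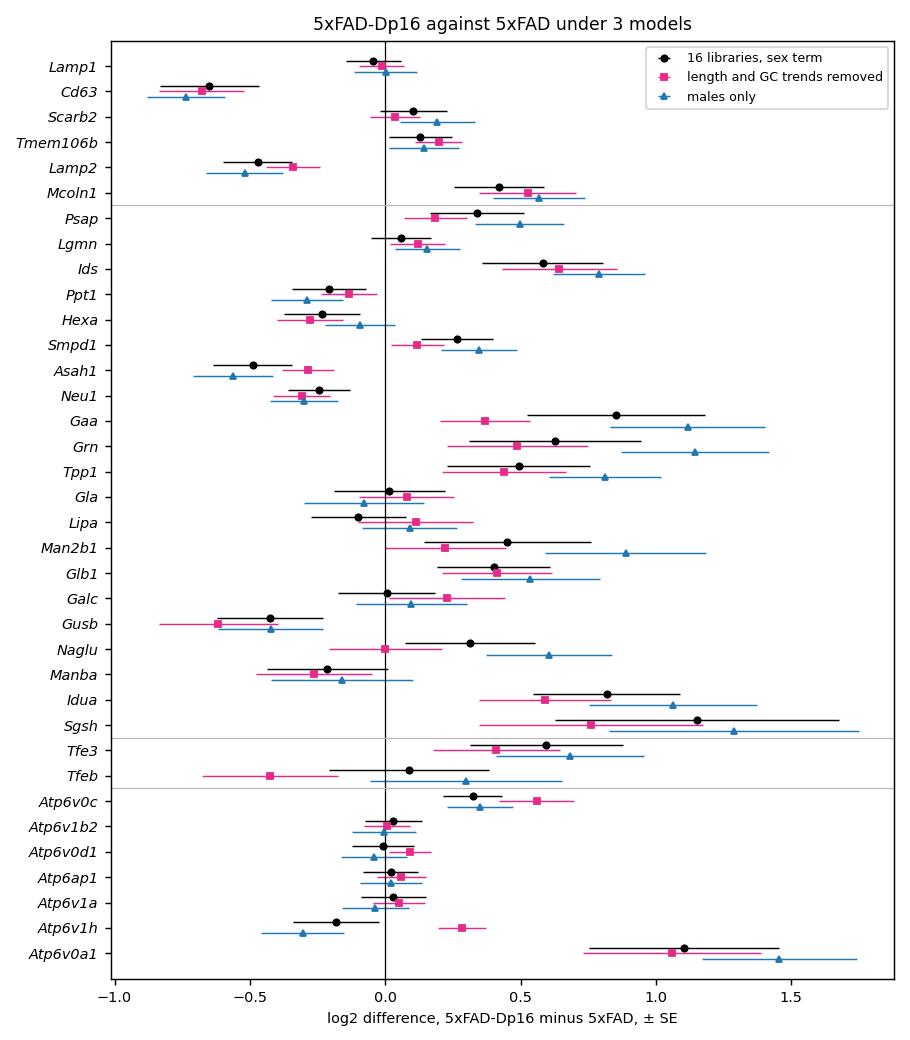
Log2 difference ± SE, 5xFAD-Dp16 minus 5xFAD, for the 36 genes under 3 models: all 16 libraries with a sex term (circles), with each library's length and GC trends removed (squares), and males alone (triangles). Cd63, Lamp2 and Asah1 lie below 0 and Atp6v0a1 and Atp6v0c above 0 in each model, while Atp6v1h and Tfeb are among those that change side.

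The interaction sets the Dp16 effect in 5xFAD carriers against that in non-carriers. It called 0 of 36 lysosomal genes and 0% of all genes with edgeR, and 0 of 36 with DESeq2. With no filter on low counts 2 were called (5.56%, against 1.19% of all genes). At an unadjusted p under 0.05, 4 were higher and 2 lower, against 4.58 and 4.77% of all genes. The higher genes were Idua (0.94, SE 0.36), Atp6v0a1 (0.96, SE 0.45), Mcoln1 (0.50, SE 0.23) and Atp6v0c (0.32, SE 0.15), and the lower ones Asah1 (-0.46, SE 0.20) and Lamp2 (-0.39, SE 0.17), each with an adjusted p of 0.522. The median over the 36 was 0.11, against -0.011 over all genes, and 0.23 among males alone. The interaction also rests on the sex term, since the 5xFAD-Dp16 animals were all males. That term takes the sex difference as the same in each genotype. Between 5xFAD and the groups without the transgenes it differed for 12.2% of all genes at an unadjusted p under 0.05 (edgeR), with 0% called.

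Cd68, a heavily glycosylated lysosomal protein of macrophages and microglia, was the 1 gene called in the averaged effect among 20 other lysosomal membrane proteins. It held 13.04, 9.42, 11.1 and 12.04 CPM in wild-type animals, 13.2, 11.9, 13.5 and 13.8 in Dp16 animals, 40.8, 46.1, 15.1 and 14.2 in 5xFAD and 20.5, 17.7, 20.1 and 15.9 in 5xFAD-Dp16. All libraries with the transgenes were above all without them, as for 0.0999% of all genes, and the female 5xFAD libraries were far above the male ones. The averaged difference was 0.98 (SE 0.19, adjusted p = 0.0479); the call ended in 17 of 25 alternatives, and the difference was 0.40 among males. In the averaged effect 0 of 12 other pump subunits, 0 of 19 biogenesis, sorting and nutrient-sensing genes and 0 of 20 autophagy genes were called by edgeR. At an unadjusted p under 0.05, 0 of the pump subunits, 1 biogenesis gene on either side and 1 autophagy gene on the lower side were met, against 4.2% of all genes on the higher side and 3.34% on the lower, so that these counts were near the background. In the averaged Dp16 effect each of these 4 lists had 0 called genes.

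Beside this call, 3 of 16 microglia markers were called higher in 5xFAD against wild-type, where 0.159% of all genes were called higher, and 1 of 16 in the averaged effect, where 0.153% were. Of 12 markers of plaque-associated microglia 6 and 5 were called higher in the same comparisons. None of the 16 microglia markers was at 0 in any library, and their summed level by genotype is given above. Of the 12 plaque-associated markers 2, Cst7 and Itgax, had a library with 0 reads. The part of either list in the values of Cd68 and Hexa was not tested.

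The female and the male 5xFAD libraries stood apart for many lysosomal genes, and for many genes in general. Those of the 2 females were both above those of the 2 males for 16 of 36 genes (44.4%) and both below for 10 (27.8%), where 29.6 and 29.4% of all genes did so. In wild-type the counts were 1 and 5 (11 and 10.6% of all genes), and in Dp16 they were 2 and 2 (14.1 and 13%). The 16 included Hexa, Gaa, Grn, Man2b1, Naglu, Psap, Tpp1 and Atp6v0a1, and the 10 included 5 of the 7 pump genes (Atp6v0d1, Atp6v1a, Atp6v1b2, Atp6v1h and Atp6ap1) with Lamp2, Cd63, Neu1, Asah1 and Ppt1. This split was looked at after the values were seen.

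Grn had the smallest p for this difference, with 36.4 and 30.4 CPM in the females and 12.5 and 14.3 in the males. Man2b1 stood at 31.3 and 27.3 against 9.63 and 19.6 CPM, and Naglu, which degrades heparan sulfate, at 10.9 and 10.4 against 6.86 and 5.62. When females and males of a genotype were fitted apart (edgeR), the female-minus-male difference within 5xFAD was 1.32 for Grn (SE 0.32, adjusted p = 0.249), 1.00 for Man2b1 (SE 0.34, adjusted p = 0.249) and 0.77 for Naglu (SE 0.28, adjusted p = 0.249). In that model 0 of 36 genes were called (0.047% of all genes), and 7 had an unadjusted p under 0.05 (19.4%, against 18.6% of all genes). Over wild-type and Dp16 together it called 0 of 36 (0.0353% of all genes), with 0 at an unadjusted p under 0.05 (2.97% of all genes). The difference between these contrasts called 0 of 36 (0% of all genes), with 4 at an unadjusted p under 0.05 (11.1%, against 12.2% of all genes), the largest that of Grn at 1.29 (SE 0.38, adjusted p = 0.408). The male 5xFAD libraries were also those with negative relations to gene length, rho -0.46 and -0.24 against 0.23 and 0.079 in the females, so sex and this property of the libraries cannot be told apart in these animals. The females also held more of the summed microglia markers, 1229 and 1232 CPM against 871 and 757 in the males, and a larger share of mitochondrial reads, 10.99 and 10.6% against 8.11 and 8.78%. The part of either in the split of Grn, Hexa and Man2b1 cannot be told apart from sex.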

How the data were processed

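Raw read counts per gene were deposited by the authors as whole numbers with no normalization, and RPKM values were deposited by the authors in a second table. The submitters' processing notes name build GRCm38 and, without a role for each, bcl2fastq, HTSeq 0.6.1, SAMtools 1.5, HISAT2 2.1.0 and FastQC 0.11.5. Per the labels' protocols the libraries were strand-specific and read in pairs. The strand setting of the counting is not given in the sources used here, so reads of overlapping antisense genes may not be separated. Within 0.1%, 100% of RPKM values matched count, length and column total.

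Genes were kept by edgeR's filterByExpr (17019 of 55385) and libraries, of 12483286 to 20385010 reads, scaled by TMM. The 16 libraries were fitted together with edgeR 4.0.16 (R 4.3.3, robust quasi-likelihood), with 4 genotype means plus a term for sex, and 7 comparisons were tested two-sided with Benjamini-Hochberg adjustment over all genes at 0.05. Standard errors are the log2 difference divided by the square root of F. P-values set a difference against the spread between libraries of a genotype. With 1 library per animal, differences between animals and between library preparations cannot be told apart in that spread. The test was checked on simulated counts for the averaged 5xFAD effect only. It found 75 of 100 genes changed 2-fold and 98 of 100 changed 4-fold, with 1 false call each. Smaller changes were not covered by this check.

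The 36 genes and the other lists were chosen with earlier results of these data known. Values in every library are given for the 2 genes of each role with the smallest p in each averaged effect; other genes named with values were chosen after they were seen. Alternatives were DESeq2 1.42.0, RLE scaling, no filter on low counts, no sex term, males alone, only the compared groups, the replicate block, leaving out each library, and removal of per-library trends on gene length (lowess span 0.4), GC content or both; the GC settings, the E-box search and the fit of females and males apart were added after the data were seen. Gene positions and transcript GC content came from Gencode M21, joined by gene identifier, and promoter sequences from RefSeq (GRCm38.p6). Values of 1 gene of the other lists are not reported here.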

Additional observations from a re-analysis of the deposited data

Results flagged for a closer look

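In 6 of the 144 groups of 4 libraries checked for the 36 genes, 1 library stood far from the other 3 (by Dixon's test of the gap against the group's range); chance flags about 1 group in 20. Lamp1 stood at 501 CPM in wild-type replicate 1, above 434 to 436 in the others, and at 396 CPM in 5xFAD-Dp16 replicate 4, below 426 to 432. Lamp2 stood at 186 CPM in 5xFAD replicate 3, above 149.5 to 154. Scarb2 stood at 153 CPM in Dp16 replicate 3, above 128 to 132. Sgsh stood at 7.78 CPM in wild-type replicate 4, above 1.90 to 2.30, and Grn at 30.2 CPM in the same library, above 20.6 to 22.3.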

How the results depend on the processing

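No alternative called a lysosomal gene in the 5xFAD comparisons or in Dp16 against wild-type. The replicate numbers were not shown to pair animals: of 24 same-numbered pairs 5 had a correlation of deviations over 0.1, with a median of -0.016 and a range from -0.36 to 0.32, and the block called 0 lysosomal genes. The GC settings were chosen after the data were seen. Scaling by DESeq2's size factors (RLE) called 0 lysosomal genes in the 7 comparisons. Counts are listed below where they differed from the reported count by over 1.5 times, and medians where they moved by over 0.056, the pooled SD of the library median within genotypes.

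Genes called over the whole table numbered 32 in the averaged 5xFAD effect, 30 in 5xFAD against wild-type, 3 in 5xFAD-Dp16 against Dp16, 16 in the averaged Dp16 effect, 3 in Dp16 against wild-type, 0 in 5xFAD-Dp16 against 5xFAD and 0 in the interaction. With DESeq2 the genes called were 154 in the averaged 5xFAD effect, 234 in 5xFAD against wild-type, 25 in 5xFAD-Dp16 against Dp16, 131 in the averaged Dp16 effect, 35 in Dp16 against wild-type, 740 in 5xFAD-Dp16 against 5xFAD and 21 in the interaction, and the lysosomal genes called were 5 in 5xFAD-Dp16 against 5xFAD. With no filter on low counts beyond 1 read the genes called were 105 in the averaged 5xFAD effect, 235 in 5xFAD against wild-type, 45 in 5xFAD-Dp16 against Dp16, 1097 in the averaged Dp16 effect, 43 in Dp16 against wild-type, 2215 in 5xFAD-Dp16 against 5xFAD and 346 in the interaction, and the lysosomal genes called were 4 in the averaged Dp16 effect, 5 in 5xFAD-Dp16 against 5xFAD and 2 in the interaction. Among males alone the genes called were 10 in the averaged 5xFAD effect, 5 in 5xFAD against wild-type, 2488 in the averaged Dp16 effect, 0 in Dp16 against wild-type and 3956 in 5xFAD-Dp16 against 5xFAD, and the lysosomal genes called were 7 in the averaged Dp16 effect and 12 in 5xFAD-Dp16 against 5xFAD. Under that setting the median log2 difference of the 36 genes was -0.12 in the averaged 5xFAD effect, -0.22 in 5xFAD against wild-type, -0.000583 in 5xFAD-Dp16 against Dp16, 0.15 in 5xFAD-Dp16 against 5xFAD and 0.23 in the interaction. Without the sex term the genes called were 16 in 5xFAD-Dp16 against 5xFAD. With the length trend removed the genes called were 34 in the averaged Dp16 effect, 16 in Dp16 against wild-type and 4 in 5xFAD-Dp16 against 5xFAD. Under that setting the median log2 difference of the 36 genes was 0.19 in the interaction. With the GC trend removed the genes called were 21 in the averaged 5xFAD effect and 3 in 5xFAD-Dp16 against 5xFAD. Under that setting the median log2 difference of the 36 genes was -0.16 in 5xFAD against wild-type. With both trends removed the genes called were 5 in 5xFAD-Dp16 against Dp16, 48 in the averaged Dp16 effect, 23 in Dp16 against wild-type and 12 in 5xFAD-Dp16 against 5xFAD. With only the compared groups the genes called were 7 in 5xFAD against wild-type, 5 in 5xFAD-Dp16 against Dp16, 0 in Dp16 against wild-type and 5020 in 5xFAD-Dp16 against 5xFAD, and the lysosomal genes called were 12 in 5xFAD-Dp16 against 5xFAD. Under that setting the median log2 difference of the 36 genes was -0.0012 in 5xFAD-Dp16 against Dp16. With the replicate block the genes called were 17 in the averaged 5xFAD effect, 9 in the averaged Dp16 effect and 0 in Dp16 against wild-type.

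Leaving out 1 library at a time, genes called ran from 13 to 49 in the averaged 5xFAD effect, 16 to 32 in 5xFAD against wild-type, 2 to 5 in 5xFAD-Dp16 against Dp16, 10 to 43 in the averaged Dp16 effect, 0 to 3 in Dp16 against wild-type, 0 to 42 in 5xFAD-Dp16 against 5xFAD and 0 to 1 in the interaction, and 0 to 0 lysosomal genes were called in each of the 7 comparisons. The medians of the 36 genes then ran from -0.087 to -0.034 in the averaged 5xFAD effect, -0.15 to -0.079 in 5xFAD against wild-type, -0.012 to 0.097 in 5xFAD-Dp16 against Dp16, 0.029 to 0.077 in the averaged Dp16 effect, -0.034 to 0.0074 in Dp16 against wild-type, 0.062 to 0.12 in 5xFAD-Dp16 against 5xFAD and 0.072 to 0.13 in the interaction.

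The difference of Tfe3 in the averaged 5xFAD effect, 0.010, changed sign to -0.041 without the sex term and -0.068 among males alone, and in 9 of the fits without 1 library, which ran from -0.059 to 0.14. The difference of Tfeb in the averaged Dp16 effect, 0.13, changed sign to -0.032 with the GC trend removed and -0.13 with both trends removed, and in 1 of the fits without 1 library, which ran from -0.021 to 0.28. The difference of Scarb2 in 5xFAD-Dp16 against 5xFAD, 0.10, changed sign to -0.072 with the length trend removed. The difference of Tfeb in 5xFAD-Dp16 against 5xFAD, 0.089, changed sign to -0.018 with the length trend removed, -0.24 with the GC trend removed and -0.43 with both trends removed, and in 1 of the fits without 1 library, which ran from -0.22 to 0.28. The difference of Atp6v0d1 in 5xFAD-Dp16 against 5xFAD, -0.0078, changed sign to 0.019 with no filter on low counts beyond 1 read, 0.058 without the sex term, 0.21 with the length trend removed, 0.0079 with the replicate block and 0.092 with both trends removed, and in 4 of the fits without 1 library, which ran from -0.037 to 0.080. The difference of Atp6ap1 in 5xFAD-Dp16 against 5xFAD, 0.021, changed sign to -0.00044 with only the compared groups and -0.021 with the GC trend removed. The cause of these shifts was not tested.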

Other observations

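Across the 36 genes the log2 difference of 5xFAD-Dp16 against 5xFAD had a Spearman's rho of 0.29 with transcript GC content and 0.26 with gene length, where all genes had 0.28 and 0.45. These are correlations across genes that share libraries and are given as descriptions. In the same comparison 8 of 9 markers of cortical excitatory neurons were positive, with a median log2 difference of 0.78 and 0 called. At an unadjusted p under 0.05 (edgeR) 4 were higher, where 11.8% of all genes were. Their summed level ran from 536 to 920.4 CPM in 5xFAD and from 929.7 to 1386 in 5xFAD-Dp16, narrowly without overlap. Wild-type libraries ran from 711 to 1382 CPM and Dp16 libraries from 773 to 1285, which overlapped with both. The lowest sum was in 5xFAD replicate 3 and the highest in 5xFAD-Dp16 replicate 1, the libraries at the ends of the length relation. Summed markers of neurons in general overlapped, at 9203 to 12406 CPM in 5xFAD and 9295 to 10285 in 5xFAD-Dp16. The part of these markers in the values of Atp6v0a1 and the other pump genes was not tested.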
